A study of Mus musculus with 22 samples.

Results

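The 8 genes described here encode transcription factors and adaptors of the GATA and TAL1 complex. They were chosen by name, as Gata1, Gata2, Gata3, Zfpm1, Tal1, Lyl1, Lmo2 and Ldb1, out of 47311 genes, and the values of all annotated transcripts of a gene were summed in each library. RNA was sequenced from sorted bone marrow cells of mice in which Arid1a, a DNA-binding subunit of the BAF chromatin remodeling complex, could be deleted, and the KO was compared with the WT in each population. The 22 libraries came from long-term hematopoietic stem cells (LT-HSCs, 2 WT and 2 KO) and from common myeloid progenitors (CMPs), granulocyte-macrophage progenitors (GMPs) and megakaryocyte-erythroid progenitors (MEPs), with 3 WT and 3 KO libraries of each. Mice 300, 305 and 309 (WT) and 301, 304 and 308 (KO) each gave all 3 progenitor populations, and the LT-HSC libraries carry other mouse names, S245 and S269 (WT) and S244 and S270 (KO).

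KO mice were Arid1a f/f;Mx1-Cre+. Mice called WT were littermates with the genotype Arid1a f/f;Mx1-Cre-, described as matched for sex, and they carried the floxed allele as well. All of them received 5 doses of 300 µg poly(I:C) from 8 to 14 weeks of age, and cells were sorted 4 weeks later. Mx1-Cre is switched on by interferon and is not restricted to a blood lineage, so that deletion is not confined to the sorted cells. The gates used Kit, Sca1, CD34 and FcγRII/III for progenitors and CD34-Flt3- LSK for LT-HSCs. LT-HSC libraries were made with a kit for very small RNA amounts and the others with a poly-A kit, hence population and kit cannot be told apart between LT-HSCs and progenitors, and no test was made between them.

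GATA factors are zinc finger proteins that bind the DNA motif for which they are named. GATA2 acts in stem and progenitor cells and in mast cells, whereas GATA1 takes its place at many sites as erythroid and megakaryocytic cells mature, an exchange known as the GATA switch. At many of these sites a GATA factor is joined by TAL1, or its close relative LYL1, through the bridging proteins LMO2 and LDB1, and GATA1 also works with the cofactor FOG1, which Zfpm1 encodes. In bulk RNA, a lower value can mean fewer cells of a type or less RNA per cell, and these cannot be told apart here.

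Library totals lay between 40803835 and 65930565 estimated counts. Arid1a was lower in every KO library than in every WT library of its population, with a log2 fold change of -1.14 in LT-HSCs, -0.22 in CMPs, -0.40 in GMPs and -0.14 in MEPs. Its edgeR adjusted p was 0.421, 0.0284, 0.0246 and 0.0836 respectively, and the summed transcripts include those outside the deleted exon, so this is a check of the labels and not of the deletion. Xist was above 1000 CPM in the progenitor libraries of WT mouse 305 and under 2 CPM in those of the other 5 mice, values that go against 1 sex for all 6. In the LT-HSC libraries Xist lay between 50.3 and 83.1 CPM. Gata1 lies on the X chromosome, and its value in CMPs is therefore also given without mouse 305. Among the LT-HSC libraries, KO summed between 286 and 3895 TPM over 8 eosinophil markers and WT between 63.4 and 315 TPM. The part of these markers in the LT-HSC results was not tested. The edgeR p-values set a difference against the spread between the mice sampled. Those of the exact tests are bounded by the group size.

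Gata2 is printed first because it fell in 3 populations, and the RefSeq windows below show what lies at its annotated starts. Each runs from 250 bases before to 50 bases after a start on build GRCm38.p6. Capitals mark GATA motifs (AGATAA or its variant ending in G, and TGATAA or its variant ending in G, on either strand) and E-boxes (CANNTG), the motif that TAL1 and LYL1 bind with a partner. The upstream Gata2 window lies at chr6:88193641-88193940 on the plus strand, the downstream Gata2 window at chr6:88198414-88198713, the upstream Tal1 window at chr4:115056176-115056475 on the plus strand and the Gata1 window at chrX:7967861-7968160 on the minus strand.
Gata2, upstream: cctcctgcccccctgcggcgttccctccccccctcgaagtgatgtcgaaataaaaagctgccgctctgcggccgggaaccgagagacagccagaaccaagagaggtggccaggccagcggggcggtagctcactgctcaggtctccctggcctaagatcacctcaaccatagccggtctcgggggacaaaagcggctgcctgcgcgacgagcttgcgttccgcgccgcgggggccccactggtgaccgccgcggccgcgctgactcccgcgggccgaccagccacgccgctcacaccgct
Gata2, downstream: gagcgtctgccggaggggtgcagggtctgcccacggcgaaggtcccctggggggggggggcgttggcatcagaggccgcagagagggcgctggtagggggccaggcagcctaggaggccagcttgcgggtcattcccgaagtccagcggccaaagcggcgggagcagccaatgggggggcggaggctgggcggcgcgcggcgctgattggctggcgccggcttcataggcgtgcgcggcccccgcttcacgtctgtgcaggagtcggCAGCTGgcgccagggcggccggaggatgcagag
Tal1, upstream: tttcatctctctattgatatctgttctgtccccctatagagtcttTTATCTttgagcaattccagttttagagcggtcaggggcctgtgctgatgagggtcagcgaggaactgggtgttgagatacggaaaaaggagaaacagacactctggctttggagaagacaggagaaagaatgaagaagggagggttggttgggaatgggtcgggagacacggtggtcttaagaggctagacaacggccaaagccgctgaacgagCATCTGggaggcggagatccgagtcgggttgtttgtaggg
Gata1: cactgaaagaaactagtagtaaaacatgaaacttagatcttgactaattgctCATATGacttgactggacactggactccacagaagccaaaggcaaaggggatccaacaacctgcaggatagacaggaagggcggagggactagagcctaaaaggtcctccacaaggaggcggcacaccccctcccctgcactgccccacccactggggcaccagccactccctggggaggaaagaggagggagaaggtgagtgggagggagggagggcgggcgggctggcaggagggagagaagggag
The upstream Gata2 window held no match to either motif, and the downstream window held 1 E-box. The Tal1 window held 1 GATA motif and 1 E-box, and the Gata1 window held 1 E-box. Among 11 windows of 7 members, 3 held a GATA motif and 6 an E-box, and among all 32851 windows of this length 29.8% held a GATA motif and 72.3% an E-box. A match describes the letters only.

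On GRCm38 the annotation places Gata1 at chrX:7959260-7978071, Gata2 at chr6:88193891-88207032, Gata3 at chr2:9857078-9890034 and Zfpm1 at chr8:122282141-122337251. It places Tal1 at chr4:115056426-115071755, Lyl1 at chr8:84701457-84704715, Lmo2 at chr2:103957986-103981878 and Ldb1 at chr19:46031570-46045214.

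Levels were compared between genes as TPM, which allows for transcript length. Gata1 was highest in MEPs, at 224 ± 5.80 TPM (SD, n = 3) in WT, and lowest in GMPs, at 14.05 ± 0.269 TPM (SD, n = 3). Among WT progenitors Gata2 was highest in CMPs (256 ± 27.0 TPM, SD, n = 3), followed by GMPs (83.1 ± 8.28) and MEPs (63.9 ± 9.003). The WT LT-HSC libraries, made with the other kit, had 212 and 277 TPM of Gata2, which overlap the CMP values. Gata1 exceeded Gata2 only in MEPs among the WT progenitor libraries. Gata3, better known in T cells, lay between 33.7 and 42.8 TPM in the 4 LT-HSC libraries and at or under 4.79 TPM in the 18 progenitor libraries. Zfpm1 followed Gata1, with 205 ± 24.9 TPM in WT MEPs, 140 ± 14.4 in WT CMPs and 16.9 ± 0.715 in WT GMPs (SD, n = 3 each).

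Tal1 was likewise lowest in GMPs among WT progenitors, at 29.1 ± 2.44 TPM (SD, n = 3), against 92.4 ± 11.9 in CMPs and 127 ± 12.4 in MEPs. Its relative Lyl1 was ordered the other way, with 163 ± 9.49 TPM in WT GMPs, 119 ± 3.13 in CMPs and 66.7 ± 8.21 in MEPs, and lay between 10.8 and 14.6 TPM in LT-HSCs. Of the bridging proteins, Lmo2 was the most abundant member in every library, from 309 TPM in a KO GMP library to 1672 TPM in a KO LT-HSC library. Ldb1 had 460 ± 18.9 TPM in WT MEPs, 268 ± 4.40 in CMPs and 115 ± 3.34 in GMPs (SD, n = 3).

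**Figure D1:**
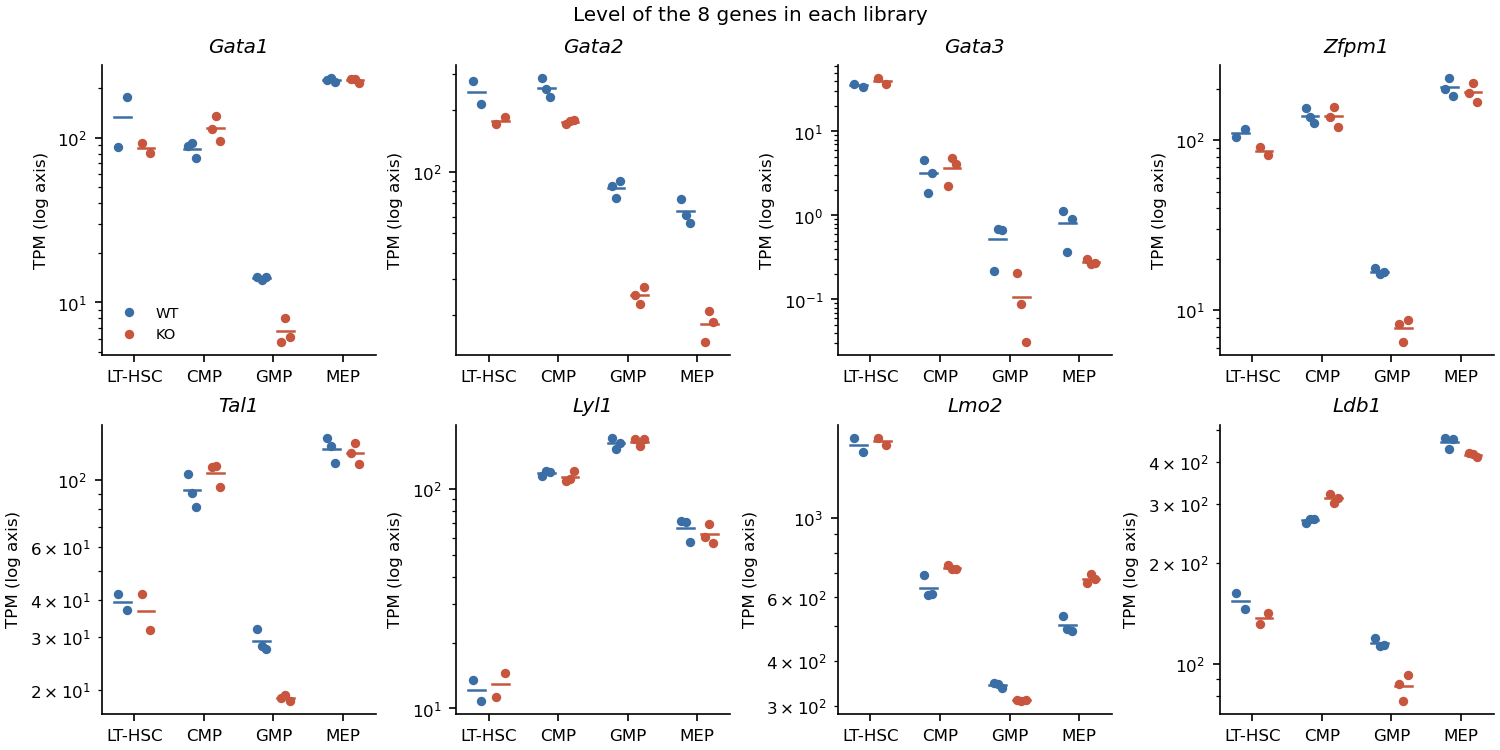
TPM (log axis) of each gene in each of the 22 libraries, with WT in blue, KO in red and the group mean as a line. GMPs hold the lowest progenitor values of Gata1, Zfpm1, Tal1, Lmo2 and Ldb1 and the highest of Lyl1, and Gata2 falls from WT to KO in CMPs, GMPs and MEPs.

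Differences between progenitor populations were tested in edgeR with the mouse as a block. In WT cells all 8 members passed an adjusted p of 0.1 between GMPs and CMPs, beside 45.2% of 18523 genes, and 7 were lower in GMPs (24.6% of genes) while Lyl1 was higher (20.6%). Gata1 differed by a log2 fold change of -2.55 (SE 0.10) and Zfpm1 by -2.93 (SE 0.11). Between MEPs and CMPs 7 members passed, beside 70.6% of genes, of which 33.5% were higher and 37.1% lower in MEPs. Gata1 (1.74), Ldb1 (1.11), Tal1 (0.86) and Zfpm1 (0.55) were higher in MEPs and Gata2 (-1.74), Gata3 (-1.66) and Lyl1 (-0.52) were lower. Lmo2 did not pass there, with -0.08 and an adjusted p of 0.123. All 8 passed between GMPs and MEPs, beside 70.7% of genes, and Gata2 and Lyl1 were the members higher in GMPs (35.4% of genes, with 35.3% lower).

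The same contrasts in KO cells gave 8, 8 and 8 calls, beside 59.1%, 69.5% and 70% of genes. Lmo2 was then higher in MEPs than in CMPs, by 0.29 on the log2 scale (SE 0.04, adjusted p = 3.2e-05 in edgeR). The Gata1 step from CMPs to GMPs was -3.81 in KO against -2.55 in WT, and that of Gata2 from CMPs to MEPs was -2.90 in KO against -1.74 in WT.

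For KO against WT within a population, values are given as CPM after TMM normalization. Gata2 had 422, 376 and 350 CPM in WT CMPs and 225, 241 and 243 CPM in KO CMPs. All KO libraries lay below all WT libraries, with a log2 fold change of -0.69 (SE 0.07, edgeR adjusted p = 4.24e-04). In GMPs Gata2 had 135, 115 and 147 CPM in WT and 38.9, 37.7 and 45.4 CPM in KO. The groups again did not overlap, and the log2 fold change was -1.70 (SE 0.11, edgeR adjusted p = 1.11e-05). In MEPs Gata2 had 113, 93.4 and 90.1 CPM in WT and 24.3, 28.9 and 29.3 CPM in KO. The log2 fold change was -1.84 (SE 0.11, edgeR adjusted p = 2.94e-05), a 3.59-fold lower level. The fall was larger in GMPs than in CMPs by -1.01 and larger in MEPs than in CMPs by -1.15 (edgeR interaction, adjusted p = 1.40e-04 and 9.06e-05), whereas GMPs and MEPs differed by -0.15 (SE 0.13, adjusted p = 0.485).

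In CMPs, 2 of 8 members passed the test, 1 higher and 1 lower, beside 23.4% of 17214 genes (10.6% higher and 12.8% lower). Besides Gata2 this was Gata1, which had 103, 111 and 90.3 CPM in WT and 126, 154 and 110 CPM in KO. KO library 308 lay below WT library 305, so the groups overlapped, and the log2 fold change was 0.35 (SE 0.12, edgeR adjusted p = 0.0814). Without WT mouse 305 it was 0.42 (edgeR adjusted p = 0.0817), and without KO mouse 304 it was 0.21 (adjusted p = 0.208). The Gata1 call was lost under 5 of 13 other settings, with an adjusted p of up to 0.251. With mice paired as in the column order of the study's table, 4 members passed, beside 5384 of 17214 genes, against 4030 genes without the pairing. Lyl1 (-0.16, edgeR adjusted p = 0.0310) and Ldb1 (0.13, edgeR adjusted p = 0.0643) joined the calls. Without the pairing both had an adjusted p of 0.138 in edgeR, and the other settings that called them were a fit without KO mouse 308 for Lyl1 (edgeR adjusted p = 0.0590) and DESeq2 for Ldb1 (adjusted p = 0.0897).

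In GMPs, 7 of 8 members passed, beside 33.9% of 16383 genes. Of these members 6 were lower in KO, a direction that 16.3% of genes took, while 17.5% were higher. Among the 6, Gata3 met the low-count filter through its WT libraries. Gata1 had 15.4, 14.1 and 15.8 CPM in WT and 7.01, 9.19 and 7.97 CPM in KO. Every KO library lay below every WT library, and the log2 fold change was -0.90 (SE 0.12, edgeR adjusted p = 5.46e-04). Its cofactor gene Zfpm1 had 36.6, 29.4 and 35.9 CPM in WT and 16.7, 17.3 and 18.7 CPM in KO. These groups did not overlap either, with a log2 fold change of -0.95 (SE 0.10, edgeR adjusted p = 1.31e-04).

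Tal1 in GMPs had 72.4, 60.1 and 64.2 CPM in WT and 47.2, 46.9 and 45.1 CPM in KO, a log2 fold change of -0.50 (SE 0.08, edgeR adjusted p = 0.00148). Ldb1 had 143, 133 and 143 CPM in WT and 110, 107 and 126 CPM in KO, with -0.29 (SE 0.07, edgeR adjusted p = 0.0168). Both genes were lower in all 3 KO libraries. Lyl1 had 197, 173 and 192 CPM in WT and 207, 209 and 220 CPM in KO. Its log2 fold change of 0.18 (SE 0.07, edgeR adjusted p = 0.0752) placed every KO library above every WT library but did not pass under 7 of 13 other settings. The adjusted p over all 13 ranged from 0.0262 to 0.213. On the TPM scale the Lyl1 groups overlapped, at 163 ± 9.49 in WT and 165 ± 7.32 in KO (SD, n = 3).

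Gata3 in GMPs had 0.471, 0.329 and 0.466 CPM in WT and 0.151, 0.219 and 0.0765 CPM in KO, so few counts lie behind it. It met the low-count filter through its WT libraries, with 17.3 to 28.7 estimated counts against 4 to 11 in KO. Its log2 fold change was -1.50 (SE 0.44, edgeR adjusted p = 0.0331), and it lost its call without KO library 308 or WT library 309 (adjusted p = 0.119 and 0.109). Lmo2 was the member that did not pass in GMPs. It had 280, 258 and 265 CPM in WT and 259, 267 and 266 CPM in KO, which overlap, and -0.02 (SE 0.06, edgeR adjusted p = 0.847). On the TPM scale the same gene was 343 ± 5.75 in WT and 310 ± 1.42 in KO (SD, n = 3), with no overlap.

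In MEPs, 4 of 8 members passed, beside 29.4% of 15777 genes, and Gata2, Gata3 and Ldb1 were lower (15.4% of genes) while Lmo2 was higher (14%). Lmo2 had 427, 406 and 397 CPM in WT and 535, 561 and 583 CPM in KO. No KO library fell among the WT libraries, and the log2 fold change was 0.45 (SE 0.05, edgeR adjusted p = 5.29e-04). Ldb1 had 634, 598 and 646 CPM in WT and 554, 545 and 573 CPM in KO, a log2 fold change of -0.17 (SE 0.05, edgeR adjusted p = 0.0324) that was not called without WT mice 300 or 309 or KO mice 301 or 304. Gata3 had 1.02, 0.777 and 1.70 CPM in WT and 0.687, 0.608 and 0.568 CPM in KO (log2 fold change -0.91, edgeR adjusted p = 0.0881), and this call was lost under 7 of 13 other settings. Gata1 did not pass in MEPs. It had 292, 301 and 284 CPM in WT and 287, 289 and 287 CPM in KO, and its log2 fold change was -0.02 (SE 0.04, edgeR adjusted p = 0.749).

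In LT-HSCs, 0 of 8 members passed the edgeR test, beside 0.0792% of 22733 genes, and 0 had an unadjusted p under 0.05, and 0 passed in DESeq2. The median log2 fold change over all tested genes was -0.16 here. Gata2 had 492 and 447 CPM in WT and 382 and 468 CPM in KO, which overlap. On the TPM scale its values did not overlap, at 277 and 212 in WT and 171 and 183 in KO. KO TPM was also below WT TPM for Zfpm1 (90.9 and 82.3 against 104 and 117) and Ldb1 (131 and 142 against 162 and 145). Lyl1 and Lmo2, whose KO libraries lay above WT in CPM, overlapped in TPM. Gata1 had 88.2 and 244.4 CPM in WT and 126 and 121 CPM in KO, and WT library S269 held the high value. Without WT library S245, which had counts on more genes than the other 3 libraries, Gata1 was called at -0.96 (edgeR adjusted p = 0.00591), a comparison of the KO libraries with that high library, and without S269 it was 0.45 (adjusted p = 0.332). On simulated counts this design recovered 1% of genes changed by 2-fold, so a change of that size was not detectable here.

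**Figure D2:**
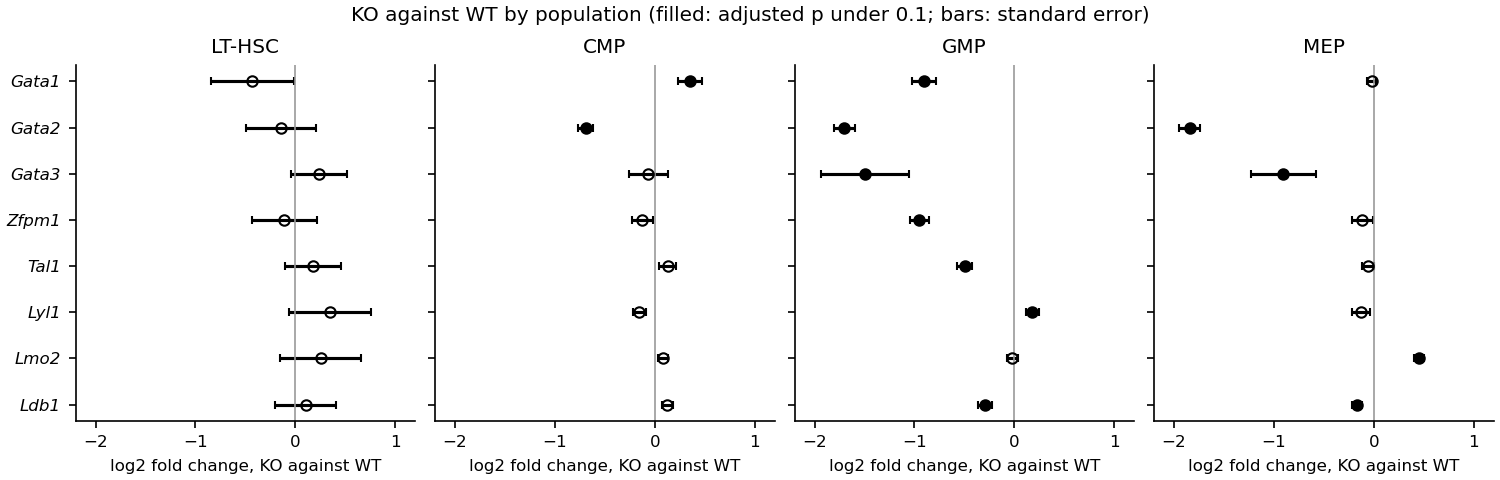
Log2 fold change of KO against WT (x axis) for each gene and population, with filled points for an edgeR adjusted p under 0.1 and bars for the standard error. Gata2 is filled on the left in CMPs, GMPs and MEPs, 6 genes are filled on the left in GMPs, and Lmo2 is filled on the right in MEPs.

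The CPM of the WT and KO libraries did not overlap for 7 members in GMPs (42.4% of all genes), 4 in MEPs (38.8%), 3 in CMPs (34%) and 2 in LT-HSCs (36.3%).

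The KO effect was compared between populations in the fit of 18 libraries. It differed between GMPs and CMPs for 7 of 8 members, beside 21% of genes, with 6 more negative in GMPs (10% of genes) and Lyl1 more positive (10.9%). Gata1 showed the largest difference after Gata3, at -1.25 (SE 0.13, edgeR adjusted p = 3.64e-05). Between MEPs and CMPs it differed for 4 members, beside 13% of genes, with Lmo2 higher by 0.37 (SE 0.06, edgeR adjusted p = 0.00142). Between MEPs and GMPs it differed for 5 members, beside 26.8% of genes, and Gata1 (0.88), Zfpm1 (0.83), Lmo2 (0.46) and Tal1 (0.43) were less reduced or more raised in MEPs.

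The ratio of Gata1 to Gata2 TPM was taken within each library. WT CMPs gave ratios of 0.315, 0.366 and 0.325, against 0.667, 0.775 and 0.539 for KO CMPs. WT GMPs gave 0.167, 0.186 and 0.157, against 0.232, 0.358 and 0.225 for KO GMPs. The ratios of WT MEPs were 3.04, 3.71 and 3.87, and those of KO MEPs were 15.4, 10.9 and 11.5. The KO ratio lay above the WT ratio in every library of these 3 populations, and it did so while Gata1 itself was called higher in CMPs, in overlapping groups and not under every setting, fell in GMPs and did not pass the test in MEPs.

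The mean log2 ratio was higher in KO by 0.96 (SE 0.17) in CMPs, 0.65 (SE 0.22) in GMPs and 1.82 (SE 0.19) in MEPs, with p = 0.1 in each by a two-sided exact permutation test, the smallest p that 3 against 3 libraries allow. Averaged over the 3 populations of a mouse, the ratio was 2.21-fold higher in the 3 KO mice than in the 3 WT mice (exact permutation p = 0.1). After Benjamini-Hochberg adjustment over the 5 ratio tests each of these p-values was 0.125. The WT LT-HSC ratios were 0.318 and 0.837 and overlapped the KO ratios of 0.548 and 0.440, with a difference of -0.07 (SE 0.72, exact permutation p = 1, where the smallest possible is 0.3333).

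**Figure D3:**
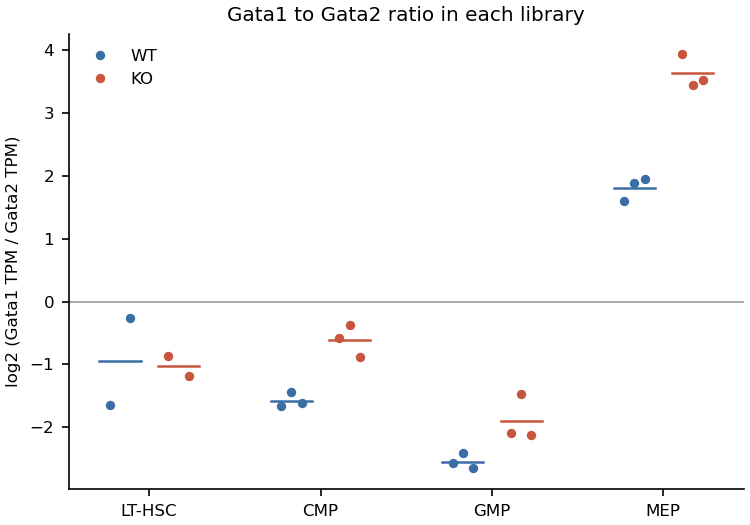
Log2 of the Gata1 to Gata2 TPM ratio in each library (y axis) by population, with WT in blue, KO in red and group means as lines. KO points lie above all WT points in CMPs, GMPs and MEPs, and only MEPs lie above 0.

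Transcripts were also set apart by where they begin. Lmo2 has an upstream annotated start on chromosome 2 at position 103957986, 11542 bases before the next, and the share of its TPM at this start was 74.6% ± 1.75 in WT MEPs, 39.3% ± 2.68 in WT CMPs and 9.47% ± 3.95 in WT GMPs (SD, n = 3). In all 6 mice the share was higher in MEPs than in GMPs, by 61.0 percentage points on average (exact sign-flip p = 0.0312, the smallest that 6 mice allow, and 0.0656 after adjustment over 21 tests). The KO shares were 70.9% ± 1.48 in MEPs, 43.0% ± 2.52 in CMPs and 14.05% ± 6.16 in GMPs. The TPM of transcripts from this start lay between 365 and 388 in WT MEPs and between 465 and 489 in KO MEPs. The grouping by start was chosen after the transcript values had been seen.

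Ldb1 was ordered differently, since its upstream start held 31.4% ± 1.06 of TPM in WT GMPs, 25.7% ± 0.189 in CMPs and 19.0% ± 2.08 in MEPs. In 0 of 6 mice was it higher in MEPs than in GMPs, and the mean difference was -9.90 percentage points (exact sign-flip p = 0.0312, adjusted p = 0.0656). The next annotated Ldb1 start lies only 300 bases downstream, against 11542 for Lmo2. Transcripts from that near start were counted with those further downstream. The Ldb1 share therefore does not set a distant start apart, as the Lmo2 share does. For Gata2 the upstream start, 4443 bases before the next, held 63.0% ± 1.63 in WT GMPs, 55.4% ± 0.401 in WT CMPs and 50.4% ± 3.40 in WT MEPs. In KO it held 54.6% ± 2.57, 51.4% ± 1.10 and 54.7% ± 6.75 respectively. KO lay below WT in CMPs and GMPs (exact permutation p = 0.1 for both, the smallest possible) and overlapped WT in MEPs (p = 0.5). By estimated counts in place of TPM, KO again lay below WT in CMPs (-3.46 percentage points, exact permutation p = 0.1), but the groups overlapped in GMPs (-4.94, p = 0.2) and KO lay above WT in MEPs, at 79.0% to 85.0% against 72.1% to 78.8% (exact permutation p = 0.1). A Gata2 transcript of 423 bases held from 15.0% to 37.1% of the gene's TPM, which raises TPM relative to counts. Tal1 gave similar shares in the 3 WT progenitor populations, from 42.5% to 45.7% at its upstream start. The Zfpm1 upstream share was higher in MEPs than in CMPs in 0 of 6 mice. Its mean difference was -19.8 percentage points by TPM and -3.94 by counts (exact sign-flip p = 0.0312, adjusted p = 0.0656 for both). For Gata1 the share in MEPs less GMPs was -6.86 by TPM and -2.27 by counts, with the same p-values. Over 38 transcripts of 7 genes in 4 populations, 0 of 152 shares differed between KO and WT after adjustment by exact permutation tests, and 0 had an unadjusted p under 0.05, which these group sizes cannot reach.

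**Figure D4:**
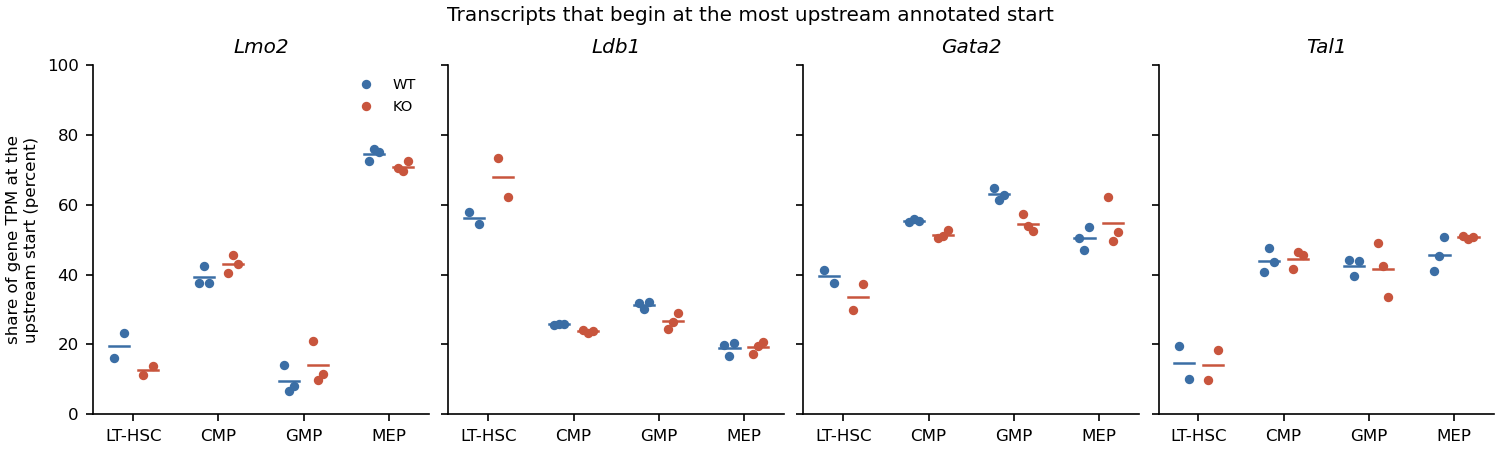
Share of a gene's TPM on transcripts that begin at the most upstream annotated start (y axis, percent) in each library, with WT in blue, KO in red and means as lines. The Lmo2 share is near 75% in MEPs, 39% in CMPs and 9% in GMPs of WT mice.

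Genes that the complex is known to act on were read as lists. Over all genes tested, 10.6% rose and 12.8% fell in CMPs, 17.5% rose and 16.3% fell in GMPs and 14% rose and 15.4% fell in MEPs, and each list's count stands beside these shares. Of 31 erythroid genes tested, 26 rose and 1 fell in CMPs, with a median log2 fold change of 1.66 against -0.003 over all genes. Trim10 (11.1-fold), the beta-globin gene Hbb-bt (8.30-fold) and Alas2 (8.11-fold), the first enzyme of erythroid heme synthesis, rose the most. The mean WT level in CMPs was 0.572 TPM for Trim10 and 0.835 TPM for Alas2. In MEPs 25 rose and 1 fell (median 0.71), led by the anion exchanger gene Slc4a1 (8.71-fold), Alas2 (7.85-fold) and Hbb-bs (7.26-fold). Slc4a1 had a mean of 0.653 TPM in WT MEPs. In GMPs 8 of 31 rose and 4 fell (median 0.31), and Icam4 was 2.22-fold lower whereas Bcl2l1 was 1.83-fold higher.

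The calls among megakaryocyte genes are given by population. In CMPs 2 of 16 rose and 10 fell (10.6% and 12.8% of all genes), and Clec1b (4.19-fold), F2rl2 (2.48-fold) and Rab27b (2.03-fold) were lower. The 2 that rose were Gp1ba (log2 fold change 0.84) and Gp9 (0.70). In GMPs 1 of 16 rose and 6 fell, with Clec1b (3.69-fold), Rab27b (2.21-fold) and the integrin gene Itga2b (1.98-fold) lower and Gp9 (log2 fold change 0.53) higher. Clec1b had a mean of 1.03 TPM in WT GMPs. In MEPs 5 of 15 rose and 0 fell, and the platelet receptor gene Gp9 (4.23-fold), Selp (2.96-fold) and Vwf (2.88-fold) were higher. Selp was low there, at 0.436 ± 0.477 TPM in WT and 1.05 ± 0.345 TPM in KO (SD, n = 3).

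More mast cell and basophil genes fell than rose in each progenitor population. In GMPs 8 of 10 fell and 0 rose, and their summed TPM went from between 1027 and 1508 in WT to between 326 and 389 in KO. The basophil protease genes Prss34 (29.7-fold) and Mcpt8 (5.63-fold) and the IgE receptor gene Fcer1a (5.07-fold) were lower. In CMPs 6 of 10 fell and 2 rose, with Prss34 (35.3-fold), Mcpt8 (5.45-fold) and Cpa3 (2.92-fold) lower. In MEPs 5 of 7 fell, with Prss34 (6.32-fold), Cpa3 (3.41-fold) and Ms4a2 (2.33-fold) lower. Some of these levels were low. Mean WT levels were 3.34 TPM for Prss34 in CMPs, and 1.21 TPM for Prss34, 2.79 for Cpa3 and 0.606 for Ms4a2 in MEPs. Of 8 eosinophil markers, 7 fell in GMPs, from a sum of 4428 to 10118 TPM in WT to 1270 to 2517 TPM in KO, with Ear2 (5.01-fold), Ear6 (4.94-fold) and Il5ra (4.44-fold) lower. The part of these cells in the lower Gata1, Gata2 and Zfpm1 of KO GMPs was not tested.

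T and innate lymphoid markers bear on Gata3. In GMPs their sum was 14.8 to 19.6 TPM in WT and 6.39 to 8.94 TPM in KO, in MEPs 12.1 to 16.1 and 5.47 to 8.15 TPM, and 3 of 7 and 4 of 8 tested markers fell. Of the GMP sum, Lat alone held a mean of 8.64 TPM in WT and 3.21 TPM in KO. Lat had a mean of 50.8 TPM in WT CMPs. Thy1 (9.77-fold), Rora (2.84-fold) and Lat (2.53-fold) were lower in GMPs, and Tcf7 (4.50-fold), Thy1 (3.78-fold) and Bcl11b (3.45-fold) in MEPs. Mean WT levels were as low as 0.471 TPM for Rora in GMPs, and 0.503 TPM for Thy1 and 0.102 TPM for Bcl11b in MEPs. The T cell receptor gene Cd3e was at or under 0.0720 TPM in every GMP and MEP library. In CMPs Il7r was 8.81-fold higher, from a mean of 0.827 TPM in WT, and Thy1 (6.78-fold) and Lat (1.73-fold) were lower. B cell markers summed to at most 33.5 TPM in progenitors, where Blnk was 3.71-fold higher in CMPs and 3.33-fold lower in MEPs and Cd79b was 1.51-fold lower in CMPs. Whether these markers reflect T, innate lymphoid or B cells, and their part in the Gata3 result, was not tested.

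Granulocyte and monocyte markers were 4244 to 5062 TPM in WT CMPs and 1777 to 2722 TPM in KO CMPs, where 7 of 9 fell, among them Ly6c2 (7.24-fold), Ctsg (4.69-fold) and S100a9 (3.92-fold). In GMPs 5 rose and 2 fell, with S100a8 (4.44-fold), Prtn3 (1.76-fold) and Elane (1.69-fold) higher. The KO level of S100a8 varied widely (428 ± 327 TPM, SD, n = 3), and S100a9 did not pass (log2 fold change 1.17, edgeR adjusted p = 0.210). The 2 that fell in GMPs were Csf1r (log2 fold change -0.61) and Ly6c2 (-0.32). In MEPs Fcgr3 (4.63-fold, from a mean of 0.686 TPM in WT) and Ly6c2 (2.28-fold) were lower. LT-HSC markers gave 3 rises and 2 falls among 8 tested in CMPs (23.4% of all genes called), 1 and 5 among 8 in GMPs (33.9%) and 3 and 0 among 7 in MEPs (29.4%). Slamf1 was higher in all 3 populations (3.14-fold, 2.63-fold and 5.08-fold), while Fgd5 (21.6-fold and 19.9-fold) and Procr (2.99-fold and 2.90-fold) were lower in CMPs and GMPs, and Mecom (3.04-fold) and Mllt3 (1.55-fold) were higher in MEPs. Some of these folds rest on low levels. Mean WT levels were 0.912 TPM in CMPs and 0.155 TPM in GMPs for Fgd5. They were 0.195 TPM in GMPs for Slamf1 and 0.419 TPM in MEPs for Mecom.

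**Figure D5:**
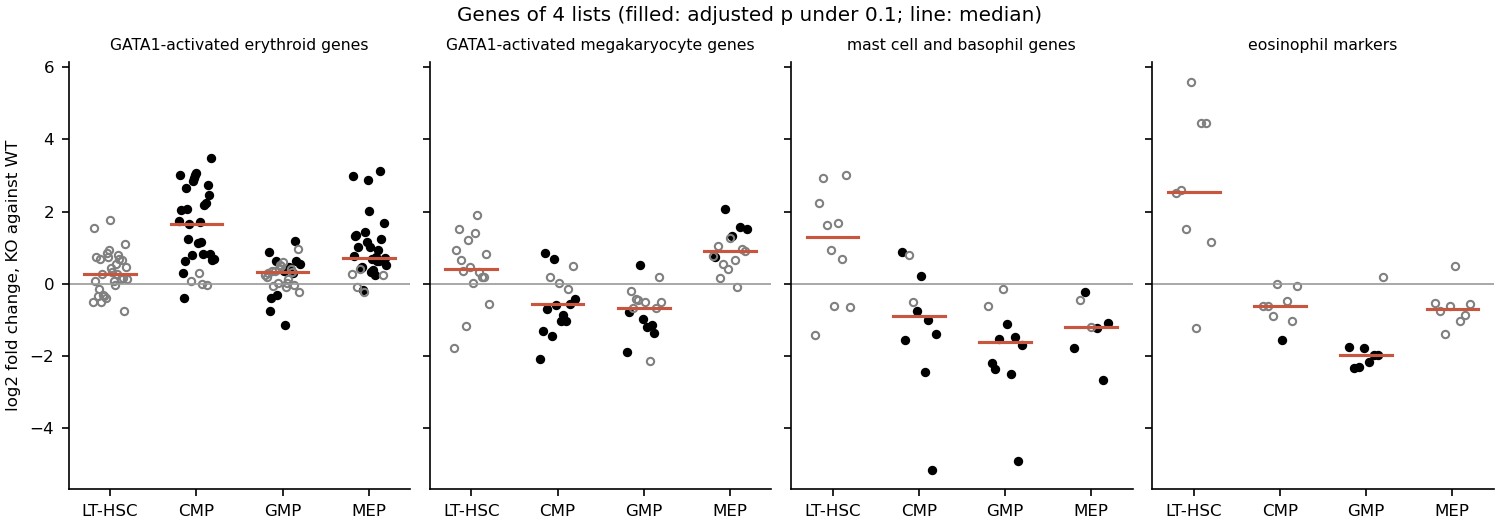
Log2 fold change of KO against WT (y axis) for each tested gene of 4 lists by population, filled where the edgeR adjusted p is under 0.1, with the list's median as a line. Erythroid genes have medians of 1.66 in CMPs and 0.71 in MEPs, and mast cell and basophil genes have -1.61 in GMPs.

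Other partners of the complex were mixed. Of 29 tested in CMPs, 5 rose and 8 fell (23.4% of all genes called), of 28 in GMPs 6 and 8 (33.9%) and of 28 in MEPs 5 and 8 (29.4%), with medians of 0.02, -0.03 and 0.02. The LIM-only gene Lmo1 was lower in CMPs (2.38-fold) and GMPs (3.28-fold), Gfi1b (2.05-fold) and Lmo4 (1.91-fold) in GMPs, Runx1t1 (2.52-fold) in CMPs, and Tcf4 (1.80-fold) and Ssbp3 (1.44-fold) in MEPs. Runx1t1 was low in CMPs, at a mean of 0.123 TPM in WT and 0.0522 TPM in KO. Klf1, an erythroid activator, was 2.22-fold higher in CMPs and 1.30-fold higher in MEPs. Of 8 progenitor genes linked to GATA2, 2 rose and 2 fell in CMPs, 0 and 2 in GMPs and 2 and 3 in MEPs, where Vim (1.45-fold in CMPs, 2.18-fold in MEPs), Myc (1.17-fold in GMPs, 1.34-fold in MEPs) and Cd34 (1.38-fold in GMPs) were lower, and Mecom (2.16-fold in CMPs) and Samd14 (1.38-fold in CMPs) were higher. The lower Cd34 stands beside the use of CD34 in the gates, and its part in these results was not tested.

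Over the 18 progenitor libraries the genes with the most similar TPM pattern were found among 10281 genes by the root mean square difference of centred log2 values. Gata1 was nearest to Rab4a (0.30) and to the member Zfpm1 (0.35), and Gata2 to Atp13a2 (0.35) and Lat (0.40). Gata3 was nearest to Gabbr1 (0.63) and Ddah2 (0.65), Zfpm1 to Adcy6 (0.23) and Zfp36l1 (0.26), and Tal1 to Bcl11a (0.16) and Tmem64 (0.21). Lyl1 was nearest to Traf3 (0.11) and Tmed10 (0.11), Lmo2 to Jak2 (0.11) and Dennd6a (0.12), and Ldb1 to Ppp1r15a (0.12) and Ppp6r2 (0.15). The spans of Gata3, Lyl1, Lmo2 and Ldb1 overlap those of genes on the opposite strand, and Gata3 and Zfpm1 overlap a gene on their own strand. The strand setting of the counting is not given in the sources used here and shared exon sequence was not measured, so the values of these members may hold reads of their neighbours.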

How the data were processed

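Per the paper's methods, the authors sequenced 100 bp paired-end reads and ran kallisto, and the deposited columns hold each transcript's estimated count, its TPM and its effective length, with mm10 and DESeq2 also named in the submitters' processing notes. The deposited estimated counts split shared fragments between transcripts. The deposited TPM values are scaled for effective length, so a short transcript weighs more than in counts.

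Transcripts were matched to GENCODE vM21 (GRCm38), which held 114200 of 115088 (99.2%), and summed per gene. Gene counts were rounded and tested with edgeR 4.0.16 (TMM, filterByExpr, quasi-likelihood F-test, Benjamini-Hochberg adjustment over all tested genes, threshold 0.1) in R 4.3.3, per population with genotype as the term, and over 18 progenitor libraries with the mouse as a block, because each mouse gave all 3 populations. Ratios and shares were tested by exact permutation over libraries or mice, with a pseudocount of 0.1 TPM for ratios. Transcripts were grouped as upstream when their annotated start lay within 200 bases of the first. WT and KO mice have no shared number in the labels. A pairing from the column order of the study's tables was tried as a block. It set WT mouse 305, with high Xist, beside KO mouse 304, with low Xist. The correlations of paired deviations were 0.116 to 0.221 in CMPs, 0.208 to 0.263 in GMPs, -0.0302 to 0.259 in MEPs and 0.329 in LT-HSCs.

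The members and lists were chosen with earlier results of these data known. Named genes are the members, Arid1a, up to 3 genes per list and population with the largest change among those with an adjusted p under 0.1 and groups that do not overlap, and the 2 genes most like each member with a mean of at least 5 TPM. Xist and Cd3e were added after values were seen. So were Csf1r, Ly6c2 and S100a9 in GMPs, Gp1ba in CMPs and Gp9 in CMPs and GMPs. One gene that this rule names in GMPs is not reported here. On simulated counts with 200 genes changed by 2-fold, edgeR recovered 1% in LT-HSCs (66.7% of calls false), 62.5% in CMPs (8.76%), 65.5% in GMPs (13.8%) and 66% in MEPs (17%). Promoter windows are from RefSeq. Alternatives were DESeq2 1.42.0, median-of-ratios size factors, no low-count filter, a length offset, 1 fit of all progenitors, and each library left out.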

Additional observations from a re-analysis of the deposited data

Results flagged for a closer look

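The KO effect of several members differed between progenitor populations in a test of the difference itself (edgeR interaction with the mouse as a block, adjusted p under 0.1). As the log2 effect in GMPs less that in CMPs, these were Gata2 (-1.01), Gata3 (-1.42), Ldb1 (-0.42), Tal1 (-0.62), Gata1 (-1.25), Lyl1 (0.34), Zfpm1 (-0.82). As the effect in MEPs less that in CMPs, they were Gata2 (-1.15), Ldb1 (-0.30), Gata1 (-0.37), Lmo2 (0.37). As the effect in MEPs less that in GMPs, they were Tal1 (0.43), Gata1 (0.88), Lmo2 (0.46), Lyl1 (-0.31), Zfpm1 (0.83). Of these, both Lyl1 differences, the Gata1 difference between MEPs and CMPs and the Gata3 difference lost their call when single mice were left out. Groups of 2 or 3 libraries are too small to examine for single outlying libraries.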

How the results depend on the processing

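Gata2 in CMPs, GMPs and MEPs, Gata1, Zfpm1, Tal1 and Ldb1 in GMPs and Lmo2 in MEPs kept their direction and their call under each of 13 other settings. The number of members called in CMPs was 2, beside 4030 genes. It became 1 with a length offset (3506 genes) and 4 with the replicate block of column pairs (5384 genes). It was 1 to 3 with a library left out, beside 2726 to 3835 genes. With a library left out, the number called was 2 to 4 in MEPs and 0 to 1 in LT-HSCs, where the 1 call was Gata1 without WT S245. The replicate block gave 3 calls in MEPs, 7 in GMPs and 0 in LT-HSCs. It called 5261 of 15777 genes in MEPs, 7152 of 16383 in GMPs and 115 of 22733 in LT-HSCs. Over all genes, calls in LT-HSCs numbered 18, and became 204 with DESeq2, 208 with DESeq2 and the length offset, 286 with no filter, 115 with the block and 50 to 2516 with a library left out. Those in MEPs numbered 4637, and 3037 to 5357 with a library left out. The Gata1 to Gata2 ratio difference in LT-HSCs ran from -0.77 to 0.63 with a library left out and so turned direction, at 0.63 without WT S269 and 0.09 without KO S270. In the progenitors that difference stayed above 0 under every setting tried.

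Members not called in a comparison turned direction there in these cases. With a library left out in LT-HSCs, Gata1 ran from -0.96 to 0.45, Zfpm1 from -0.28 to 0.084 and Gata2 from -0.27 to 0.022, with the positive values without WT S269 for Gata1 and Zfpm1 and without KO S244 for Gata2. In CMPs Gata3 was 0.11 with a length offset and 0.11 with DESeq2 and that offset, and ran from -0.19 to 0.12 with a library left out. In GMPs Lmo2 was 0.0045 with DESeq2 and the offset. For the KO effect in MEPs less that in CMPs, Zfpm1 ran from -0.031 to 0.065 and Lyl1 from -0.090 to 0.12 with a mouse left out. The Gata2 share at the upstream start in MEPs less CMPs was 0.047 percentage points by counts. The cause of these turns was not tested. In LT-HSCs, 2 libraries per group and the spread between them limit what could be seen.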
